A study of Ovis aries with 18 samples.

Results

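The let-7 family was followed through plasma small RNA libraries from Polish Longwool ewes. Its members were taken as every row of the deposited count table whose name begins with oar-let-7 (oar for Ovis aries). This gave 7 of 364 features: oar-let-7a, oar-let-7b, oar-let-7c, oar-let-7d, oar-let-7f, oar-let-7g and oar-let-7i, written below without the prefix. The ewes were female, ovariectomized and carried estradiol implants in both diet groups. Of the ewes 6 ate a standard diet (CTRL) and 6 ate a high-fat diet over 14 weeks (OBESE), and plasma was drawn at weeks 7, 10 and 14. Each of the 6 groups of diet and week held 3 libraries, 18 in all. The labels give no age, and do not tie a library to a ewe or say whether plasma was pooled. A p-value here is set against the variation from library to library, part of which may be technical, and one ewe may stand behind libraries of several weeks.

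let-7 miRNAs are small RNAs that guide the silencing complex to messenger RNAs. The members share a seed, the short stretch near the start of the miRNA that pairs with targets, and differ mostly outside it, so that they can act on overlapping targets such as RAS, HMGA2 and components of the insulin and IGF pathway. LIN28 proteins block the maturation of let-7 precursors, and this balance is known for its part in growth and glucose metabolism. In blood, let-7 miRNAs are carried by cells, vesicles and protein complexes, and they mark no single cell type.

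The library totals ranged from 388574 to 1269829 counts. miR-16b, a miRNA abundant in red blood cells, took between 42.7% and 55.1% of them. Of the miRNAs fixed as cell markers, 3 of 7 for red blood cells (miR-16b, miR-25, miR-106b), 3 of 5 for platelets (miR-191, miR-21, miR-199a-3p), 1 of 2 for lymphocytes (miR-150), 1 of 3 for muscle (miR-133) and 0 of 1 for liver (miR-122) had a row under those names. The red cell list summed to 44.2% to 55.2% of the counts in CTRL and 42.9% to 51.6% in OBESE libraries, and the platelet list to 2.13% to 4.43% and 2.64% to 5.67%. Nearly all of the red cell sum was miR-16b, with a mean of 47.1%, against 0.132% for miR-25 and 0.0164% for miR-106b. Most of the platelet sum was miR-191, with a mean of 3.48%, against 0.109% for miR-21 and 0.0491% for miR-199a-3p. The lymphocyte miRNA took 0.175% to 1.27% in CTRL and 0.314% to 2.71% in OBESE libraries, while the muscle miRNA lay between 0.000257% and 0.00831% in all 18 libraries. The libraries that stood apart were 2, CTRL week 7 replicate 1 and CTRL week 14 replicate 3, with scaling factors of 0.653 and 0.718 against 0.891 to 1.19 in the rest.

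The let-7 family held 12.7% ± 1.93 of the plasma counts (SD, n = 18). Its share in the CTRL libraries was 8.34%, 10.6% and 14.9% at week 7, then 12.7%, 11.9% and 14.1% at week 10, and 16.0%, 12.6% and 9.78% at week 14 (replicates 1, 2 and 3). In the OBESE libraries it was 13.8%, 13.3% and 12.4% at week 7, then 11.1%, 15.4% and 13.5% at week 10, and 12.9%, 12.1% and 13.3% at week 14. The diets overlapped at each week, and both the lowest and the highest library were CTRL. The means were 12.3% ± 2.48 on the CTRL and 13.1% ± 1.20 on the OBESE diet (SD, n = 9 per diet), and 13.3% ± 1.86 over the 7 CTRL libraries other than the 2 that stood apart. Counting error was small beside this spread, since the lowest share had an exact Clopper-Pearson 95% interval of 8.28% to 8.41% and the highest of 15.96% to 16.12%. Such intervals cover counting error only.

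**Figure D1:**
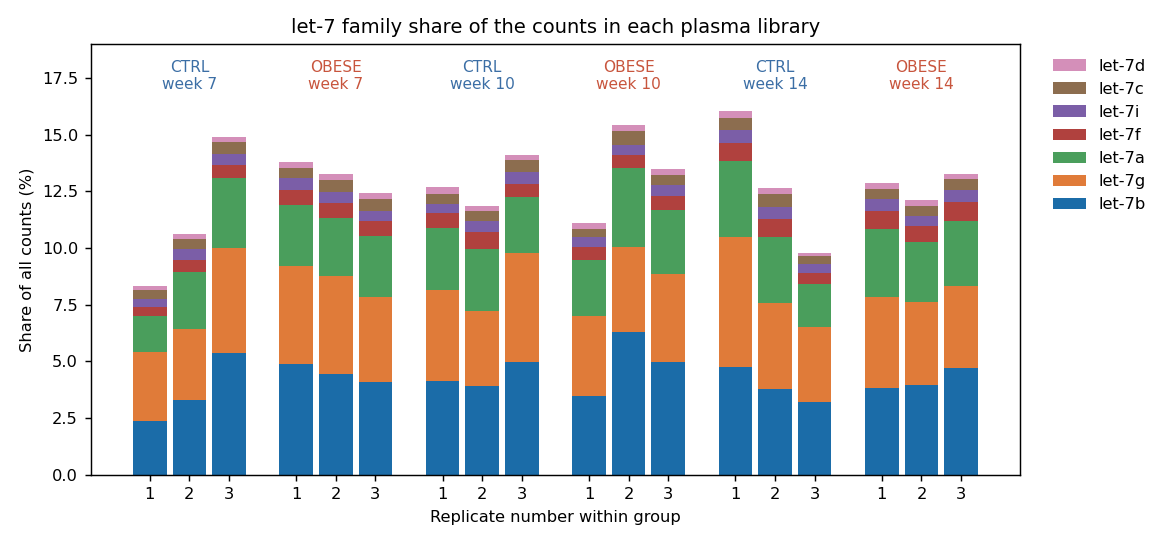
Share of all counts (%) held by each let-7 member in the 18 libraries, stacked and grouped by diet and week, with the replicate number on the x axis. The whole bar is the family share, which ran from 8.34% to 16.0%, and in every bar let-7b, let-7g and let-7a make up most of the height.

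The libraries with the lowest family shares were low in most members, and miR-16b was high in both. CTRL week 7 replicate 1 held the lowest share of let-7a, let-7b, let-7f, let-7g and let-7i, and CTRL week 14 replicate 3 the lowest share of let-7d. In CTRL week 7 replicate 1 miR-16b took 53.9% of the counts and was 6.46 times the summed let-7 count. In CTRL week 14 replicate 3 it took 55.1% and was 5.63 times that count. The ratio lay between 2.74 and 4.38 in the other 16 libraries. The part of blood cell RNA in these shares was not tested. Fewer cells or vesicles that carry let-7, less let-7 in each and more of other RNAs cannot be told apart from shares of counts. Taken over the named miRNAs with miR-16b left out, let-7 made up 62.1% ± 3.74 of the counts (SD, n = 18), from 53.5% in OBESE week 10 replicate 1 to 67.0% in OBESE week 14 replicate 3. By that measure CTRL week 7 replicate 1 held 65.3% and CTRL week 14 replicate 3 held 66.3%. That measure also drops the unnamed features, and let-7 is most of what remains. With miR-16b alone left out, CTRL week 7 replicate 1 held 18.1%, still the lowest of all libraries. CTRL week 14 replicate 3 then held 21.8%, against a mean of 24.0% ± 2.92 (SD, n = 18).

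The family was carried by 3 abundant members. let-7b took 33.2% ± 3.06 of the let-7 counts, let-7g 31.0% ± 2.96 and let-7a 21.2% ± 1.69 (SD, n = 18). Together these 3 held between 83.0% and 87.9% of the family in each library. let-7f followed with 5.14% ± 0.852, let-7i with 3.80% ± 0.384, let-7c with 3.73% ± 0.456 and let-7d with 1.92% ± 0.270. Among all 364 features, let-7b and let-7g each ranked between 4 and 6 in every library, let-7a 6 or 7, and let-7d, the rarest member, between 17 and 22. Counts of different miRNAs are compared here as shares of counts, and how efficiently each sequence enters a library is not known for these data.

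Most of this order held in each library. let-7g exceeded let-7a in 18 of 18 libraries, let-7a exceeded let-7f in 18 and let-7c exceeded let-7d in 18. The neighbours let-7b and let-7g did not differ beyond their spread, with let-7b higher in 13 of 18 libraries and a ratio from 0.787 to 1.66. let-7i and let-7c were likewise close, with let-7i higher in 12 of 18 and a median ratio of 1.04. let-7f exceeded let-7i in 17 of 18. Members with near-identical sequences can share reads, and how reads matching several members were assigned is not given in the sources used here, so the division between close members is uncertain.

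In share of counts, let-7b stood at 2.38%, 3.31% and 5.35% in CTRL and at 4.9%, 4.43% and 4.10% in OBESE libraries at week 7. At week 10 it stood at 4.13%, 3.92% and 4.98% in CTRL and at 3.46%, 6.28% and 4.95% in OBESE libraries. At week 14 the values were 4.75%, 3.80% and 3.21% in CTRL and 3.81%, 3.97% and 4.71% in OBESE libraries. let-7b had the widest range of the abundant members, and the diets overlapped at all weeks. let-7g stood at 3.02%, 3.10% and 4.66% in CTRL and at 4.30%, 4.32% and 3.72% in OBESE libraries at week 7. At week 10 it stood at 4.03%, 3.32% and 4.78% in CTRL and at 3.53%, 3.78% and 3.88% in OBESE libraries. At week 14 the values were 5.75%, 3.76% and 3.32% in CTRL and 4.03%, 3.66% and 3.60% in OBESE libraries. At each week the CTRL libraries spread more widely for let-7g than the OBESE libraries, and the highest let-7g share was that of CTRL week 14 replicate 1. let-7a stood at 1.61%, 2.53% and 3.06% in CTRL and at 2.70%, 2.55% and 2.70% in OBESE libraries at week 7. At week 10 it stood at 2.72%, 2.71% and 2.49% in CTRL and at 2.48%, 3.48% and 2.83% in OBESE libraries. At week 14 the values were 3.35%, 2.92% and 1.90% in CTRL and 3.02%, 2.64% and 2.86% in OBESE libraries. These diets overlapped too. Among the rarer members, let-7f ranged from 0.385% to 0.865% of the counts, let-7i from 0.363% to 0.563%, let-7c from 0.344% to 0.591% and let-7d from 0.155% to 0.307%.

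Levels for the tests are in CPM, counts brought to a common library size, with the size of each library set by TMM (trimmed mean of M-values) from log ratios averaged over features after the extreme ones are trimmed. On this scale the 2 libraries that stood apart came back among the others. The summed let-7 level was 127817 CPM in CTRL week 7 replicate 1 and 136255 CPM in CTRL week 14 replicate 3, inside the range of 93020 to 152385 CPM over all libraries. Both ends of that range were OBESE week 10 libraries, replicate 1 and replicate 2. The summed level averaged 129530 ± 11892 CPM on the CTRL and 123177 ± 16499 CPM on the OBESE diet (SD, n = 9 per diet).

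**Figure D2:**
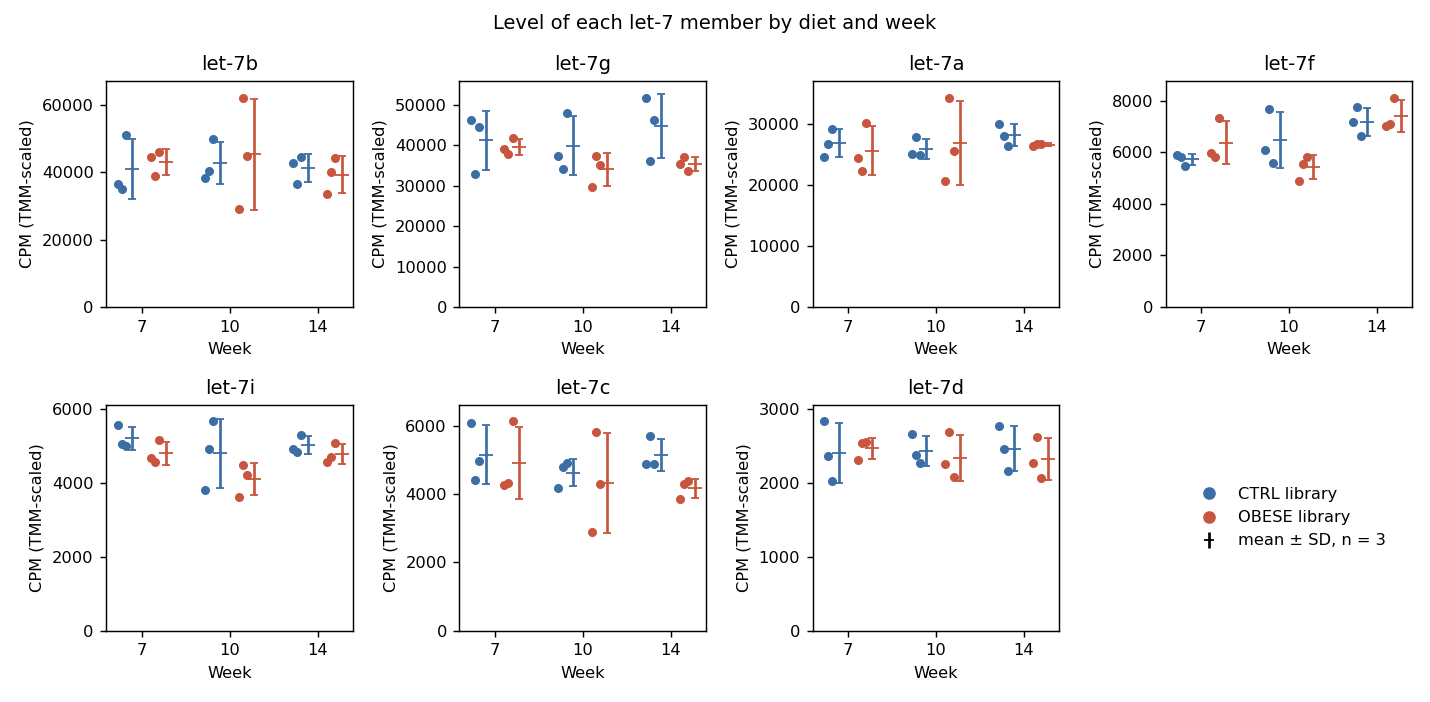
Level of each let-7 member in TMM-scaled CPM (linear axes starting at 0) by week, with CTRL libraries in blue, OBESE libraries in red and mean ± SD (n = 3) beside the points. The diets overlap in nearly all panels; for let-7c at week 14 the CTRL libraries, from 4875 to 5686 CPM, lie above the OBESE libraries, from 3856 to 4376 CPM.

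Whether the diet moved let-7 was asked first of the difference averaged over the 3 weeks. No member passed the test, with 0 of 7 past an edgeR adjusted p of 0.05, against 0% of all 168 features tested, and 0 of 7 at an unadjusted p under 0.05, against 11.3% of the features. Over all features DESeq2 called 5 and limma-voom 0, with 0 members among them. let-7g had a mean of 36339 ± 3455 CPM on the OBESE diet against 41933 ± 6843 on the CTRL diet (SD, n = 9 per diet), a log2 difference of -0.21 with an SE of 0.105 and an edgeR adjusted p of 0.451, the smallest p of the family. let-7i averaged 4551 ± 458 and 5000 ± 532 CPM, a log2 difference of -0.14 with an SE of 0.0955. let-7c averaged 4469 ± 974 and 4975 ± 585 CPM, a log2 difference of -0.16 with an SE of 0.131. The other 4 lay closer to 0, let-7a at -0.03 (SE 0.102), let-7d at -0.04 (SE 0.104), let-7f at -0.02 (SE 0.0950) and let-7b at 0.03 (SE 0.134). Without both libraries that stood apart, let-7g had -0.16 (SE 0.107, edgeR adjusted p = 0.621) and 0 of 7 members passed.

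With TMM scaling, and with libraries taken as independent, the intervals bound how large a diet difference these libraries leave room for. Over the 7 members the 95% intervals of the averaged difference ran from -0.43 to 0.31 on the log2 scale, that is from 0.741-fold to 1.24-fold of the CTRL level. The members' intervals reached between 0.200 and 0.282 to either side of the estimate, against a median of 0.532 over the 168 features. The signs turned with the scaling: 6 of 7 members were negative with a median of -0.04, against 51.2% of all features and a median of -0.0022, while with library totals alone 6 of 7 were positive. Without TMM the median of all 168 features was 0.16 higher for this difference, and the let-7 median of 0.12 lay near the median of 0.16 over all features. let-7g was negative there too, at -0.04 (SE 0.126), and let-7b stood at 0.18 (SE 0.151). With library totals alone the members' 95% intervals ran from -0.30, for let-7g, to 0.50, for let-7b, so the bounds rest on the scaling.

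**Figure D3:**
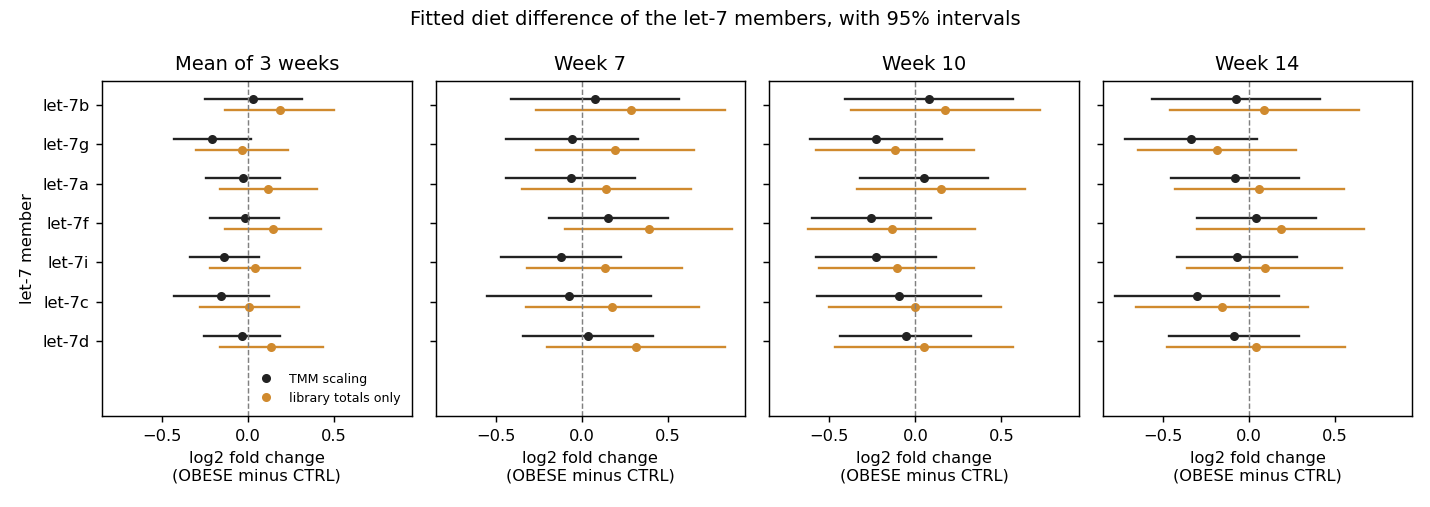
Fitted log2 fold change (OBESE minus CTRL, points) with 95% intervals (lines) for the 7 members, as the mean of the 3 weeks and at weeks 7, 10 and 14, with TMM scaling in black and library totals only in orange. Every interval crosses 0, and for the mean of the weeks the orange points of 6 members lie above 0 where the black points of 6 lie below.

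At week 7, no member passed the edgeR test for diet (0 of 7, against 0% of the 168 features), and 0 of 7 had an unadjusted p under 0.05, against 5.36%. let-7f, the member with the smallest p, had a mean of 6377 ± 838 CPM on the OBESE diet against 5733 ± 219 on the CTRL diet (SD, n = 3 per diet), a log2 difference of 0.15 with an SE of 0.165 and an edgeR adjusted p of 0.799. Without OBESE week 7 replicate 3 it was 0.04. let-7i had -0.12 (SE 0.165), 0.13 with library totals alone and -0.21 without OBESE week 10 replicate 1. That library is not part of this comparison, but a fit without it set the filter and scaling anew. All 7 members overlapped between the diets in CPM, while 8.93% of the features did not. In share of counts 2 of 7 did not overlap, against 11.3% of the features, and both were higher in OBESE libraries: let-7d at 0.227% to 0.289% against 0.184% to 0.223%, and let-7f at 0.654% to 0.663% against 0.385% to 0.574%. The 7 log2 fold changes lay between -0.12 and 0.15, with 4 of 7 negative (0 of 7 with library totals alone) against 51.2% of all features.

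At week 10, 0 of 7 members passed the edgeR test, against 0% of the features, and 0 of 7 had an unadjusted p under 0.05, against 6.55%. let-7f had a mean of 5414 ± 462 CPM on the OBESE diet against 6463 ± 1090 on the CTRL diet (SD, n = 3 per diet), a log2 difference of -0.26 with an SE of 0.165 and an edgeR adjusted p of 0.722. let-7i stood at 4095 ± 440 and 4790 ± 924 CPM, a log2 difference of -0.23 with an SE of 0.165. Both were lower in the mean of the OBESE libraries, but the groups overlapped, as they did for all 7 members, while 13.1% of the features did not overlap. All 7 overlapped in share of counts too, while 13.7% of the features did not. Without OBESE week 10 replicate 1, the library with the least let-7 on this scale, 3 of 7 members were negative in place of 5 (51.2% of all features with every library), let-7f had -0.13 and let-7i had -0.07. The filter and scaling were set anew for that fit too. Without CTRL week 10 replicate 2 let-7f had -0.09. OBESE week 10 replicate 2 was set apart by its let-7b, at 62129 CPM or 40.8% of its let-7 counts, against 28.5% to 36.8% in the other libraries.

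At week 14, 0 of 7 members passed the edgeR test, again against 0% of the features, and 0 of 7 had an unadjusted p under 0.05, against 7.74%. let-7g stood at 51759, 36198 and 46170 CPM in CTRL and at 35397, 37016 and 33735 CPM in OBESE libraries, a log2 difference of -0.34 with an SE of 0.182 and an edgeR adjusted p of 0.683. CTRL replicates 1 and 3 lay above all OBESE libraries and CTRL replicate 2 lay among them. Leaving out CTRL replicate 2 gave let-7g a log2 fold change of -0.52 (edgeR adjusted p = 0.317) and leaving out CTRL replicate 1 gave -0.24 (edgeR adjusted p = 0.782). With library totals alone it was -0.19 (edgeR adjusted p = 0.903). Over all fits that left out a library its adjusted p ranged from 0.317 to 0.899. let-7c, which is encoded beside miR-99a, stood at 4875, 5686 and 4875 CPM in CTRL and at 3856, 4292 and 4376 CPM in OBESE libraries, a log2 difference of -0.30 with an SE of 0.226 and an edgeR adjusted p of 0.782. It was the 1 member of 7 whose groups did not overlap, against 9.52% of the features. By share of counts 0 of 7 members did not overlap, against 8.33% of the features. For let-7c, CTRL replicate 3, one of the libraries that stood apart, held 0.350% and the OBESE libraries 0.424% to 0.467%. Of the 7 log2 fold changes 6 were negative (2 of 7 with library totals alone), against 50.6% of all features.

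The weeks were compared within each diet, with week 7 as the shared reference of both later weeks. In CTRL libraries 0 of 7 members passed the edgeR test at week 10 or at week 14, against 0% of the features at both. At an unadjusted p under 0.05 there were 0 of 7 at both weeks, against 1.79% and 3.57% of the features, while DESeq2 had 1 of 7 at week 14, beside 6 of 168 features. Likewise 1 of 7 members fell under it at week 14 in edgeR with DESeq2's scaling and with miR-16b left out, beside 5 of 168 features in both. let-7f stood at 5900, 5813 and 5484 CPM at week 7, at 6098, 7689 and 5602 CPM at week 10 and at 7159, 7749 and 6651 CPM at week 14. All week 14 libraries lay above all week 7 libraries. Its log2 fold change was 0.33 at week 14 (SE 0.165, edgeR adjusted p = 0.963) and 0.17 at week 10 (SE 0.165), and with library totals alone 0.46 and 0.38. At week 14 let-7f was 1 of 7 members whose weeks did not overlap, against 5.36% of the features, and at week 10 there were 0 of 7, against 4.76%. In share of counts the week 14 libraries overlapped week 7, since CTRL week 14 replicate 3 held 0.478% and the week 7 libraries 0.385% to 0.574%. By that measure 0 of 7 members did not overlap at week 14, against 2.98% of the features, and 1 of 7 at week 10, let-7d, which was higher at week 10, against 4.17%. The week 10 value of let-7f was 0.02 without CTRL week 10 replicate 2. let-7i had -0.12 at week 10 (SE 0.165), 0.09 with library totals alone and -0.0074 without CTRL week 10 replicate 1. let-7g had 0.12 at week 14 (SE 0.182), and -0.0050 without CTRL week 14 replicate 1. Of the 7 log2 values 4 were negative at week 10 and 2 at week 14, against 56% and 53.6% of all features. With library totals alone 0 of 7 were negative at both weeks, and with 1 library left out the week 14 count ran from 0 to 4.

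In OBESE libraries 0 of 7 members passed the edgeR test at week 10 or at week 14, against 0% of the features at both. At an unadjusted p under 0.05 there were 0 of 7 at both weeks, against 4.17% and 7.74% of the features. let-7f stood at 5974, 5816 and 7340 CPM at week 7, at 4905, 5533 and 5805 CPM at week 10 and at 7003, 7094 and 8113 CPM at week 14. The week 10 libraries were the lowest and those of week 14 lay above them, but overlapped week 7 through replicate 3. Its log2 fold change against week 7 was -0.24 at week 10 (SE 0.165, edgeR adjusted p = 0.897) and 0.22 at week 14 (SE 0.165, edgeR adjusted p = 0.745). let-7i had -0.23 at week 10 (SE 0.165) and let-7c had -0.23 at week 14 (SE 0.226), or -0.04 without OBESE week 7 replicate 3. The week 14 value of let-7f was 0.13 without OBESE week 14 replicate 3. At week 10, let-7f, let-7g and let-7i did not overlap week 7, 3 of 7 members against 16.1% of the features, and all 3 were lower. In share of counts 1 of 7 did not overlap, let-7f, against 11.3% of the features. By that measure let-7g held 3.53% to 3.88% at week 10 and 3.72% to 4.32% at week 7, and let-7i 0.431% to 0.464% and 0.459% to 0.519%. Without OBESE week 10 replicate 1, let-7f had 0.0097 and let-7i had 0.05, and 0 of 7 members were negative in place of 5, against 52.4% of all features with every library. That fit set the filter and the TMM scaling anew. On the scaling of all libraries, replicates 2 and 3 of week 10 also lay below all week 7 libraries for let-7f and let-7i. let-7i stood there at 4467 and 4208 CPM, against 4549 to 5149 CPM at week 7. At week 14, 1 of 7 members, let-7g, did not overlap week 7 and was lower, against 13.7% of the features. In share of counts it did overlap, at 3.60% to 4.03% against 3.72% to 4.32%, while 2 of 7 did not, against 14.3% of the features, let-7f being higher and let-7c lower at week 14. At week 14, 5 of 7 log2 values were negative, against 49.4%.

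No member's diet difference was shown to depend on the week. By edgeR's test of the interaction of diet and week, 0 of 7 members passed, against 0% of the features, and 0 of 7 had an unadjusted p under 0.05, against 4.17%. let-7f had the smallest p of the family (edgeR adjusted p = 0.988), followed by let-7g (edgeR adjusted p = 0.988).

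Proportions among the members need no library scaling. let-7f took 4.77%, 5.00% and 5.27% of the let-7 counts in OBESE libraries at week 7, then 5.27%, 3.63% and 4.75% at week 10 and 6.19%, 5.78% and 6.52% at week 14. The week 14 libraries lay above both earlier weeks. In CTRL libraries it took 4.62%, 5.18% and 3.85%, then 5.19%, 6.30% and 3.96%, and 4.96%, 6.37% and 4.88%, and the weeks overlapped. For OBESE week 14 against week 7, let-7f was 1 of 7 members whose ratio to the family did not overlap, against 13.7% of all features, while 0 of 7 did so for diet at week 7 (8.33% of the features), week 10 (7.74%) or week 14 (9.52%), for CTRL week 10 (4.17%) or week 14 (5.95%) against week 7, or for OBESE week 10 against week 7 (9.52%). let-7g took 32.2% ± 2.94 of the let-7 counts in CTRL and 29.7% ± 2.55 in OBESE libraries, and let-7b took 32.1% ± 2.52 and 34.3% ± 3.30 (SD, n = 9 per diet). The ratio of let-7b to let-7g was accordingly 1.01 ± 0.131 in CTRL and 1.17 ± 0.221 in OBESE libraries. The diets overlapped in this ratio at each week, and its highest values, 1.66 and 1.31, were OBESE week 10 replicate 2 and OBESE week 14 replicate 3.

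**Figure D4:**
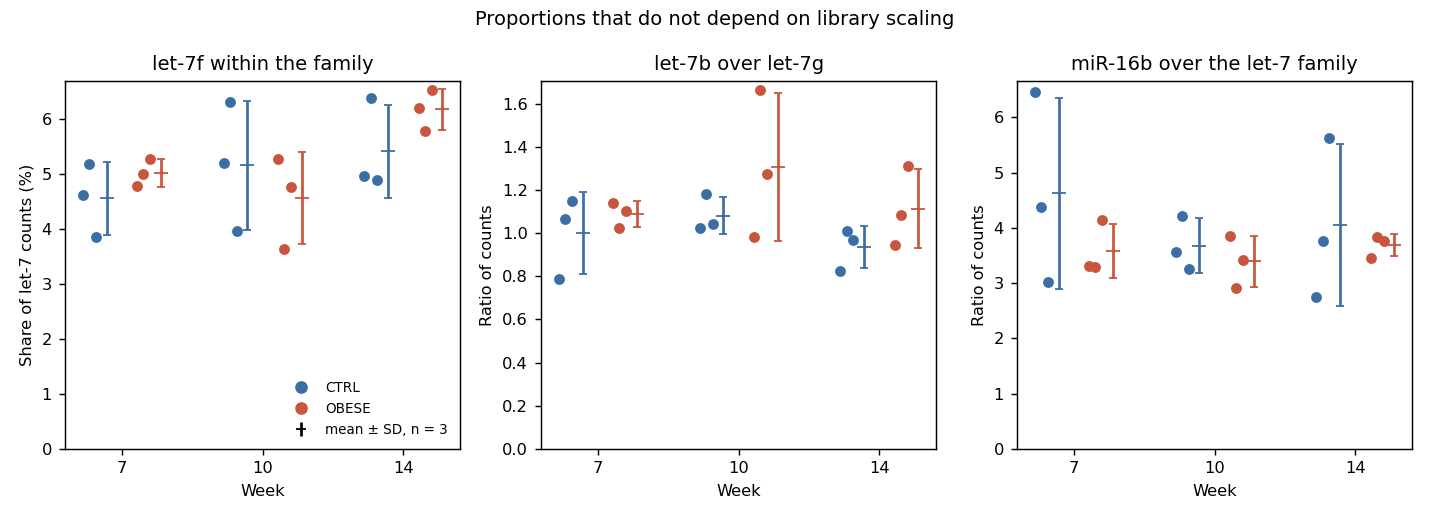
By week and diet (CTRL blue, OBESE red; points are libraries, bars mean ± SD, n = 3), let-7f as a share of let-7 counts (%), the ratio of let-7b to let-7g counts and the ratio of miR-16b to let-7 counts, all on linear axes from 0. In OBESE libraries let-7f reaches 5.78% to 6.52% at week 14, and miR-16b is 6.46 and 5.63 times let-7 in 2 CTRL libraries.

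Ratios between members varied about as much as the members' own levels. Over the 21 pairs of members, the SD of the log2 ratio across 18 libraries ran from 0.173 for let-7g and let-7i to 0.332 for let-7b and let-7f, with a median of 0.230. The SD of log2 CPM had a median of 0.208 over the 7 members. Against the rest of the family, let-7a varied least (SD of the log2 ratio 0.148) and let-7f most (0.258). In RefSeq's sheep genes (assembly ARS-UI_Ramb_v3.0), each of the 7 members matched 1 gene, and let-7a and let-7d were the only members lying within 10000 bases of each other. That pair had an SD of 0.200, and let-7a with let-7b, whose matched genes do not lie within that distance, had 0.190. Further copies of a member, under other names or not annotated, were not looked for, so linkage of the members is not settled here.

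The family was among the steadiest features of these libraries. The SD of log2 CPM over 18 libraries was 0.149 for let-7d, the lowest of all 168 features, 0.166 for let-7a and 0.168 for let-7i, and at most 0.261, for let-7c. The median was 0.208 over the 7 members and 0.529 over all features. Spread falls with level, so the 30 most abundant features, a number chosen after the values were seen, give a closer comparison: their median was 0.304, and between 0 and 5 of the 23 that are not let-7 varied less than a given member. With library totals alone let-7d had an SD of 0.241 and ranked 8 of 168 from the lowest. The members then ranked between 2 and 18, against 1 to 17 with TMM, and their median SD was 0.241 (0.545 over all features). Without both libraries that stood apart it was 0.207 (0.506), and within groups 0.190 (0.475), with ranks from 1 to 36.

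**Figure D5:**
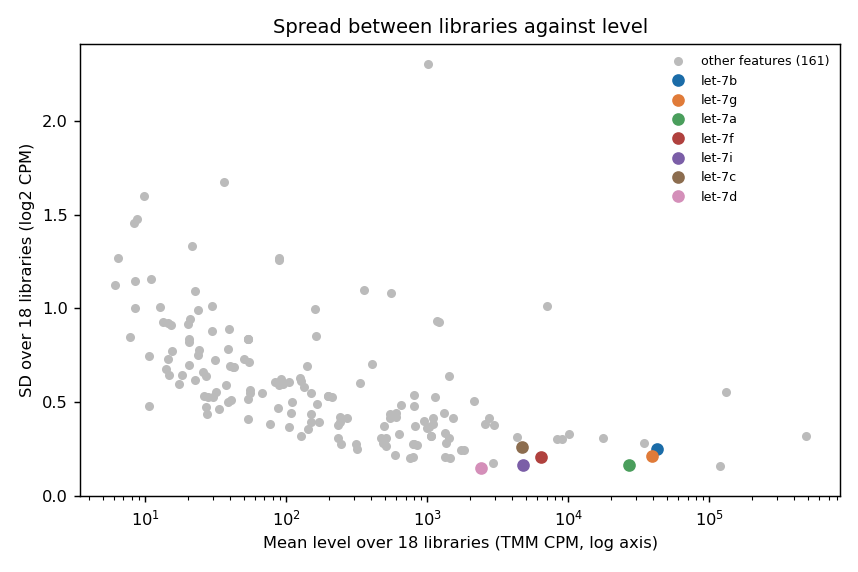
SD over 18 libraries (log2 CPM) against mean level (TMM CPM, log axis) for 168 features, with the 7 let-7 members coloured and the other 161 in grey. Spread falls with level, and the let-7 members lie along the lower edge, from 0.149 to 0.261.

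Of 7 miRNAs fixed as partners of let-7, through a like seed (miR-98, miR-202) or genes that lie beside let-7 genes in mammals (miR-99a, miR-99b, miR-100, miR-125a, miR-125b), 2 had a row and both were tested. miR-99a, the neighbour of let-7c, had a mean of 260 ± 47.6 CPM on the OBESE diet against 218 ± 72.7 on the CTRL diet (SD, n = 9 per diet), a log2 difference of 0.25 with an SE of 0.190 and an edgeR adjusted p of 0.564. let-7c, at -0.16, had the opposite sign with TMM, and 0.0065 with library totals alone. miR-125b stood at 244 ± 73.1 and 235 ± 70.1 CPM, a log2 difference of 0.04 with an SE of 0.209. Neither passed the test (0 of 2).

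Outside the family, the named miRNAs whose counts kept the most constant ratio to the summed let-7 count were miR-27a, with an SD of the log2 ratio of 0.232 over 18 libraries, miR-30a-3p with 0.250 and miR-191 with 0.276. The median over the 161 features compared was 0.606. These ratios share each library's let-7 count, and they are a description of levels only.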

How the data were processed

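Per the labels' protocols, RNA from 200 µL of plasma was made into libraries with a QIAseq miRNA kit that carries molecular identifiers and read on an AVITI instrument. Tools listed in the submitters' processing notes, with no role, are Bowtie 1.3.1, cutadapt 4.9 and DESeq2 1.42. For the build, the annotation and reads that match several miRNAs, nothing is given in the sources used here. The authors deposited raw counts per miRNA, and their table and the files of single libraries differed in 0 values. Replicates of a group differed beyond sampling noise (chi-square per degree of freedom 26.6 to 502.3). No sequences of the miRNAs were used.

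In R 4.3.3 with edgeR 4.0.16, filterByExpr (minimum count 10, minimum total 15) kept 168 features, all 7 let-7 members among them. TMM factors ran from 0.653 to 1.19. A quasi-likelihood model with 1 mean per group was fitted to all 18 libraries (12 residual degrees of freedom, common dispersion 0.153). All tests were two-sided; p-values were adjusted by Benjamini and Hochberg's method across the 168 features, and an adjusted p under 0.05 counted as passing. SEs were derived from the F statistic. Alternatives used DESeq2 1.42.0, limma 3.58.1 (voom), other scaling, filters and libraries. Fits that left out libraries set the filter and the TMM factors anew. The averaged and the week 7 diet fits were also run on simulated data with changes larger than those of let-7. The outcome is not given here and no result rests on it. Named with fold changes were all members for the averaged diet difference and the 2 with the smallest p elsewhere; outside the family, the 3 named miRNAs of steadiest ratio to let-7. Members and lists were chosen with earlier results of these data known.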

Additional observations from a re-analysis of the deposited data

How the results depend on the processing

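With edgeR, limma-voom and DESeq2, 0 of 7 let-7 members passed in any comparison under any of the alternatives run, and the smallest adjusted p was 0.222 (edgeR), for let-7g in the averaged diet difference without CTRL week 14 replicate 2. Over all features, the averaged diet difference had 0 calls among 168, 5 among 168 with DESeq2, 4 among 364 with no filter on low counts and 0 to 2 among 176 to 181 with 1 library left out (2 without OBESE week 10 replicate 1, 1 without OBESE week 7 replicate 2, 1 without CTRL week 14 replicate 2). At week 14 leaving out 1 library gave 0 to 1, with the 1 again without CTRL week 14 replicate 2. Signs of small log2 fold changes turned. With library totals alone the averaged diet difference was 0.12 for let-7a, 0.0065 for let-7c, 0.13 for let-7d, 0.15 for let-7f and 0.038 for let-7i, and let-7i had 0.13 for diet at week 7 and 0.092 for CTRL week 10 against week 7. With no filter on low counts it was 0.014 for let-7a, 0.0028 for let-7d and 0.020 for let-7f, and with counts summed over weeks 0.0071 for let-7a. With 1 library left out it ranged from -0.12 to 0.016 for let-7a, -0.088 to 0.11 for let-7b and -0.085 to 0.0078 for let-7f. For OBESE week 10 against week 7 the range was -0.23 to 0.0097 for let-7f and -0.22 to 0.046 for let-7i, and for CTRL week 14 against week 7 it was -0.0050 to 0.29 for let-7g. The causes were not tested. The family share of 12.7% (CTRL 12.3%, OBESE 13.1%) was 24.0% (23.6%, 24.3%) of counts without miR-16b and 18.7% (18.2%, 19.3%) of counts of named miRNAs, as smaller denominators make it. With 1 library left out it ranged from 12.5% to 13.0% (CTRL 11.9% to 12.8%, OBESE 12.8% to 13.3%).

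Replicate numbers were not taken to pair libraries: between weeks of 1 diet, same-numbered libraries deviated together with correlations from -0.025 to 0.692 (over 0.1 in 16 of 18 pairs), and 16 of 18 libraries correlated best with their own number, a hint from the data and not the design. Between diets the correlations ran from 0.021 to 0.353 (over 0.1 in 4 of 9 pairs), and 15 of 18 libraries correlated best with their own number. With the replicate number as a block, 0 members and 0 features passed in each comparison; the smallest adjusted p of a member was 0.399 for the averaged diet difference. Fits of only the libraries compared do not apply to the averaged difference and the interaction. Depth limits the rarest member, let-7d, most: its lowest count of 870 carries a counting error of 3.39%. Overlap in share of counts was looked at after the data were seen.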

Other observations

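Some features that carry no miRNA name kept a steadier ratio to let-7 than any named miRNA outside the family. The unnamed miRNA with running number 2, singled out after its values were seen, took 11.9% ± 2.11 of the counts (SD, n = 18), close to the 12.7% of the whole let-7 family. The let-7 count was between 0.823 and 1.34 times its count, and the SD of the log2 ratio was 0.178 over 18 libraries. For single let-7 members against the rest of the family that SD was 0.148 to 0.258. Its sequence was not used here.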
